A study of Mus musculus with 9 samples.

Results

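Expression of 10 genes of phagocytosis and lipid handling, Apoe, Trem2, Tyrobp, Spp1, Lpl, Cst7, Gpnmb, Itgax, Axl and Clec7a, was followed in single-cell RNA-seq of ependymoma-bearing and control mouse brains. They were chosen by name, and the rows with these symbols were read. Values were found for 9 of the 10 among 32285 mouse genes, and Clec7a was not analysed here. Their transcripts were counted in barcodes of brain phagocytes, meaning microglia and macrophages, and in barcodes of other cell types from the same mice. A barcode counted as a phagocyte when it held at least 1 unique molecular identifier (UMI, which stands for 1 captured transcript) in 3 or more of the 6 genes C1qa, C1qb, C1qc, Csf1r, Fcer1g and Ctss. None of the followed genes is among these 6.

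The tumors were EPZFTA-RELA ependymomas of 5 mice of genotype NestinCreERT2;Fus1, in which a conditional ZFTA-RELA fusion allele sits in the Rosa26 locus and a Nestin-driven, tamoxifen-inducible Cre recombinase switches it on in neural stem and progenitor cells. The 4 controls were brains of NestinCreERT2;TdT mice, which carry the same Cre driver and no fusion allele, and whose label names a TdTomato reporter. The study's methods describe TdTomato signal as the guide for dissecting the tumor and the matching region of control brains, so the reporter is not particular to controls. All mice were 6 to 8 weeks old, and each gave 1 library of the 10x 5′ chemistry. Tissue was dissociated, passed through Percoll, and sorted for DAPI- and Ter119- cells, that is, living cells outside the red blood cell lineage. The study places recombination in radial glia, which are neural progenitors of the embryo. Microglia and macrophages do not derive from the neural lineage. Transcripts of the fusion allele in phagocyte barcodes were not counted here.

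After filtering, 3987 to 5907 barcodes per control and 1577 to 5114 per tumor were kept, with 12938561 to 21502349 and 5900868 to 37615459 UMIs. Phagocytes were 3.72 to 7.90% of kept barcodes in controls (220, 396, 285 and 288 barcodes) and 14.1 to 29.9% in tumors (350, 905, 472, 1353 and 513 barcodes). All 10 genes of a list of homeostatic microglia genes were detected in them. Their sum was 2925 to 5353 CPM (UMIs per 1000000 UMIs of the same barcodes) in controls and 1177 to 7004 CPM in tumors. Detection alone does not mark phagocytes. In tumor barcodes that passed a gate of astrocyte genes alone, 8 or 9 of these genes had a UMI, with a sum of 271 to 2038 CPM. Control phagocyte barcodes also held neuronal RNA, with 14104 to 18819 CPM over 12 neuronal genes against 399 to 3292 CPM in tumor phagocytes. A gate of neuronal genes was passed as well by 86.4, 99.2, 96.5 and 97.9% of control phagocyte barcodes and by 36.9, 33.6, 19.7, 1.11 and 18.9% of tumor phagocyte barcodes. An astrocyte gate was passed by 9.55, 32.6, 29.8 and 30.6% in controls and by 23.7, 18.7, 12.9, 40.9 and 32.4% in tumors. Any other gate was passed by 87.3 to 99.5% in controls and by 55.1, 53.7, 37.7, 71.0 and 56.9% in tumors. The part of other cells' RNA in the phagocyte levels was not tested. The share of UMIs from the 6 gate genes differed between the groups as well, at 4740 to 7512 CPM in control phagocytes and 9778 to 26829 CPM in tumor phagocytes. The levels of the 9 genes in tumor and control phagocytes are therefore given both in CPM and per 1000 UMIs of the gate genes.

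Phagocytes that meet lipid-rich debris, plaques or dying cells are known to shift from a homeostatic program toward one called disease-associated. TREM2 is the surface receptor of this program. It binds lipids and apolipoprotein E and signals through its adaptor TYROBP (DAP12), while AXL recognises phosphatidylserine through a bridging ligand. Apolipoprotein E and lipoprotein lipase move and split lipid, cystatin F (Cst7) restrains lysosomal cathepsins, GPNMB is a glycoprotein of the lysosome and cell surface, osteopontin (Spp1) is a secreted ligand of integrins and CD44, and CD11c (Itgax) is an integrin subunit that marks the state. Astrocytes are also a main source of apolipoprotein E in the healthy brain.

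The promoters are shown for 2 genes that tumor phagocytes held far above the other tumor cells, Trem2 and Itgax, and for 2 that were about as high elsewhere in the tumor, Spp1 and Axl. For Axl and Itgax the transcript start used lies inside the span of the gene given further below. Each run is the 150 bases before a RefSeq transcript start in GRCm38.p6, 5′ to 3′ on the strand of the gene, with a match to GAGGAAG (a core bound by ETS factors of the PU.1 type, CTTCCTC on the opposite strand) or to TGACTCA (an AP-1 site, TGAGTCA on the opposite strand) in capitals.
Trem2, chr17:48346251-48346400, plus strand: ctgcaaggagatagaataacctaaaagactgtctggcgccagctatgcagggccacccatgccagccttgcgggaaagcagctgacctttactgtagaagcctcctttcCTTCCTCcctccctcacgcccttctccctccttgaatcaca
Itgax, chr7:128129400-128129549, plus strand: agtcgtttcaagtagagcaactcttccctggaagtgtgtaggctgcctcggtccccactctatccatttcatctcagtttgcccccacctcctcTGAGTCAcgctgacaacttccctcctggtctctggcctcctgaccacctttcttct
Spp1, chr5:104434961-104435110, plus strand: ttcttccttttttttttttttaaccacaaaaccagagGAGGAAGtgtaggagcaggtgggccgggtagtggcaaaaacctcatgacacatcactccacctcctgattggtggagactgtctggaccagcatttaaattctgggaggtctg
Axl, chr7:25788734-25788883, minus strand: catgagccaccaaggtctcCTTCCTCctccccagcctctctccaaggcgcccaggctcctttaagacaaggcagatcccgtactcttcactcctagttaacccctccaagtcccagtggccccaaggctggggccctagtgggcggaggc
The GAGGAAG core stood at position -41 of Trem2, -113 of Spp1 and -131 of Axl, and thus in genes of both kinds. Searched on both strands over windows from 250 bases before to 50 bases after each start, it was found in 3 of the 10 windows of the 7 members that had any, each in a different member, and in 13.6% of all 32851 windows. The AP-1 sequence was found at -56 of Itgax and at position 9 of Gpnmb, and in 5.20% of all windows. No member window held CACGTG (7.15% of all windows) or CATGTG (14.2%), the sequences that MiT/TFE factors of lysosomal genes bind. These matches describe letters only. Tyrobp and Lpl had no window in the table used.

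The first comparison asked how the genes of the receptor pair differed between tumor and control phagocytes. Trem2 (chr17:48346401-48352276, protein coding) measured 433, 245, 328 and 388 CPM in the phagocytes of control mice 1 to 4 and 1009.6, 877, 1394, 534 and 1079.6 CPM in those of tumors 1 to 5. Tyrobp (chr7:30413782-30417582) measured 683, 456, 507 and 549 CPM in controls and 1991, 2368, 2625, 910.2 and 2858 CPM in tumors. Every tumor lay above every control for both genes, and tumor 4, whose phagocytes held the smallest share of gate-gene UMIs, was the lowest tumor. In edgeR's quasi-likelihood test, with Benjamini-Hochberg adjustment over all 12218 genes tested, Trem2 was higher by 1.82 ± 0.28 on the log2 scale (SE, adjusted p = 0.000603) and Tyrobp by 2.32 ± 0.33 (adjusted p = 0.000420). Per 1000 gate-gene UMIs the groups overlapped. Trem2 then measured 51.6 to 73.6 in controls and 39.8 to 54.6 in tumors, and Tyrobp 90.9 to 104 in controls and 78.5 to 139 in tumors. Scaled in this way the differences were -0.38 ± 0.32 for Trem2, with its direction turned, and 0.08 ± 0.32 for Tyrobp (edgeR, adjusted p = 0.275 and 0.831).

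The lipid genes differed from one another. Apoe (chr7:19696244-19701310) measured 2317, 2447, 3595 and 2258 CPM in control phagocytes and 10518, 35317, 12622, 26647 and 12620.1 CPM in tumor phagocytes. Tumors 2 and 4 stood above the other 3 tumors, and all 5 tumors stood above all controls. As a stand-in for free RNA, the 3000 barcodes with the fewest UMIs of each library were summed. Their medians were 559 to 1338 UMIs, and the smallest deposited barcodes held 468 to 517, so they may hold cells as well as free RNA. In these low-UMI barcodes Apoe stood at 2838 to 3314 CPM in controls, about the level of their phagocytes, and at 3612 to 15820 CPM in tumors. Apoe was higher by 3.27 ± 0.48 on the log2 scale (edgeR, adjusted p = 0.000478). Per 1000 gate-gene UMIs it measured 308 to 732 in controls and 415, 1665, 470.5, 2725 and 612 in tumors, so that tumors 2 and 4 alone exceeded the controls, and the difference was 1.25 ± 0.56 (edgeR, adjusted p = 0.0516). Lpl (chr8:68880555-68906932), the lipase that releases fatty acids from lipoproteins, measured 22.0, 16.9, 20.2 and 22.7 CPM in controls and 23.2, 28.5, 84.8, 44.9 and 73.9 CPM in tumors. The lowest tumor and the highest control were close. Low-UMI barcodes held 15.5 to 18.2 CPM of Lpl in controls, near the level of their phagocytes, and 4.56 to 12.5 CPM in tumors. The part of free RNA in the control values was not tested. Lpl was higher by 1.66 ± 0.38 (edgeR, adjusted p = 0.00461), but turned to -0.46 ± 0.47 when scaled to the gate genes (adjusted p = 0.372). On that scale it measured 2.92 to 4.31 per 1000 gate-gene UMIs in controls and 0.914 to 4.59 in tumors. In phagocytes passing no other gate, with 28, 2, 8 and 4 control barcodes, Lpl was not called, at 0.75 (edgeR, adjusted p = 0.642).

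Cst7 (chr2:150570415-150578944) was nearly absent from control phagocytes, with 0, 3, 2 and 2 UMIs, and had 19, 1306, 124, 812 and 326 UMIs in tumor phagocytes. These counts correspond to 0, 1.75, 1.76 and 1.56 CPM in controls, at or below the level of 3 UMIs (1.75 to 6.59 CPM), and to 20.0, 262, 48.2, 80.7 and 137 CPM in tumors. Per 1000 gate-gene UMIs Cst7 measured 0 to 0.370 in controls and 0.789, 12.3, 1.80, 8.25 and 6.64 in tumors, so it was the 1 member whose measured values did not overlap on either scale. The 3 UMIs that a count of 0 allows stand for 0.877 per 1000 gate-gene UMIs in control 1, above the value of tumor 1. Its fitted difference was 6.56 ± 0.97 on the log2 scale, and 4.38 ± 0.88 when scaled to the gate genes (edgeR, adjusted p = 0.000503 and 0.000385). With control counts this small the size of the fitted difference depends on edgeR's prior count. In limma voom it was 5.79 with an adjusted p of 0.0580. With each barcode thinned to 1000 UMIs, 0, 0.505, 0 and 0% of control phagocytes and 1.14, 15.1, 4.45, 6.73 and 8.97% of tumor phagocytes held a Cst7 UMI, while barcodes of the neuron gate held one in at most 0.617% (unthinned, 0 to 0.758% of control and 3.43 to 34.4% of tumor phagocytes).

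Itgax (chr7:128129526-128150657) was also sparse, with 1, 7, 1 and 1 UMIs in control phagocytes and 16, 28, 20, 119 and 85 UMIs in tumor phagocytes. In CPM it measured 0.782 to 4.09 in controls and 16.9, 5.61, 7.78, 11.8 and 35.7 in tumors. The groups did not overlap, with control 2 and tumor 2 nearest to each other. The fitted difference was 3.13 ± 0.72 (edgeR, adjusted p = 0.00466), and 1.06 when scaled to the gate genes (adjusted p = 0.212), where the groups overlapped at 0.148 to 0.863 per 1000 gate-gene UMIs in controls and 0.264 to 1.73 in tumors. In limma voom Itgax was not called (2.70, adjusted p = 0.0884). Leaving out control 2 raised the fitted difference to 4.08, and without tumor 3, 4 or 5 Itgax did not pass the filter on low counts.

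Spp1 and Gpnmb varied widely between tumors, and Axl less so. Spp1 (chr5:104435111-104441053) measured 50.5, 33.9, 10.5 and 15.6 CPM in control phagocytes and 88.5, 2061, 103, 1566 and 536 CPM in tumor phagocytes. Tumors 2, 4 and 5 were high, and tumors 1 and 3 lay closest to the controls. Low-UMI barcodes of controls held more Spp1 on average than control phagocytes (47.6 against 27.6 CPM), and those of tumors held less (397 against 871 CPM). Spp1 was higher by 5.48 ± 1.13 on the log2 scale, and by 3.62 ± 1.01 when scaled to the gate genes (edgeR, adjusted p = 0.00272 and 0.00436). Per 1000 gate-gene UMIs tumors 1 and 3 (3.49 and 3.83) lay within the control range of 2.15 to 7.15, against 97.2, 160.2 and 26.0 in tumors 2, 4 and 5. Axl (chr7:25756500-25788924) measured 8.79, 8.18, 7.90 and 12.5 CPM in controls and 48.5, 136, 39.3, 197 and 72.3 CPM in tumors. Per 1000 gate-gene UMIs tumors 1 and 3 (1.91 and 1.46) lay within the control range of 1.17 to 2.38, and tumors 2, 4 and 5 (6.41, 20.1 and 3.50) above it. Low-UMI barcodes held 4.99 to 6.94 CPM of Axl in controls and 34.8 to 217 CPM in tumors, with a tumor mean of 104 CPM against 98.5 CPM in phagocytes. Axl was higher in phagocytes by 3.77 ± 0.58, and by 1.93 ± 0.71 when scaled to the gate genes (edgeR, adjusted p = 0.000594 and 0.0218). In phagocytes passing no other gate, with 28, 2, 8 and 4 control barcodes, the difference of 1.34 was not called (edgeR, adjusted p = 0.341). Gpnmb (chr6:49036518-49058182) had 0, 0, 2 and 0 UMIs in controls and 4, 155, 37, 909 and 6 UMIs in tumors, or 4.22, 31.1, 14.4, 90.4 and 2.52 CPM. Low-UMI barcodes of the tumors held more on average (45.3 CPM against 28.5 CPM in phagocytes). Per 1000 gate-gene UMIs tumors 1 and 5 (0.166 and 0.122) lay below control 3 (0.358). Gpnmb did not pass the filter on low counts. Without that filter it was called higher (6.37, edgeR, adjusted p = 0.00278).

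In all, 8 of the 8 members that passed the filter were called higher in tumor phagocytes, where 25.6% of all genes tested were called higher, 23.7% lower and 49.2% in either direction. Of these 8, Cst7 and Itgax passed the filter on low counts through the tumors alone, so a call in the other direction was not open to them, and their calls add nothing to the count. The other 6 were all called. In limma voom 6 of 8 were called, without Cst7 and Itgax, where 19.7% of all genes were called higher. All 9 measured members had every tumor above every control in CPM, although for Gpnmb tumors 1 and 5 lay below the level of 3 UMIs in control 1 (6.59 CPM), as did tumor 2 for Itgax, so this separation rests on control counts of 0 to 7 UMIs. How many of all genes separate in this way was not counted, so the 9 of 9 is no result about these genes. Scaled to the gate genes, 3 of the 8 members were called higher (Cst7, Spp1 and Axl), or 2 of the 6 that did not pass through the tumors alone, and none lower, where 1.41% of all genes were called higher and 77.9% lower (79.4% in all) and the median of all genes was -1.98 on the log2 scale. The scaling assumes equal gate-gene RNA per phagocyte in both groups, which was not tested, and the gate genes also chose the barcodes. Subtraction of free RNA, with its profile from the low-UMI barcodes and its size from the neuronal genes, took the share of free RNA as 100% in all 4 controls and 24.5 to 58.5% in tumors, so what was left in controls is no level of phagocytes. With it 7 of 7 members were called, from 0.97 for Trem2 to 13.9 for Spp1, where 37% of all genes were called higher and 51.9% in either direction. Since the controls then gave no phagocyte level, these calls add nothing to the count. In phagocytes passing no other gate, which left only 28, 2, 8 and 4 control barcodes, 5 of 7 members were called higher, where 6.98% of all genes were. Cst7 was among those called. Before other gates were excluded it had 0, 3, 2 and 2 UMIs in controls, so its call adds nothing to this count either.

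**Figure D1:**
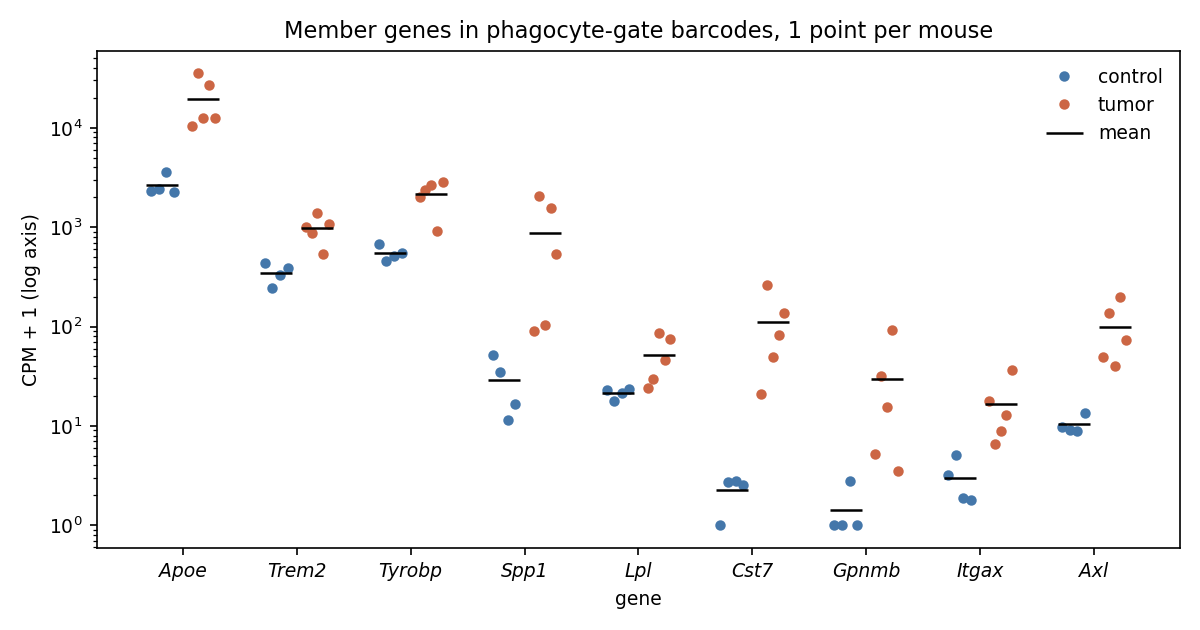
Level of each gene in phagocyte-gate barcodes, in CPM + 1 on a log axis, with 1 point per mouse (4 controls, 5 tumors) and a bar at the group mean. Every tumor lay above every control for all 9 genes on this scale, whereas per gate-gene UMI Cst7 was the 1 gene without overlap, and Trem2 and Lpl turned direction. The share of all genes that separate in this way was not counted.

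**Figure D2:**
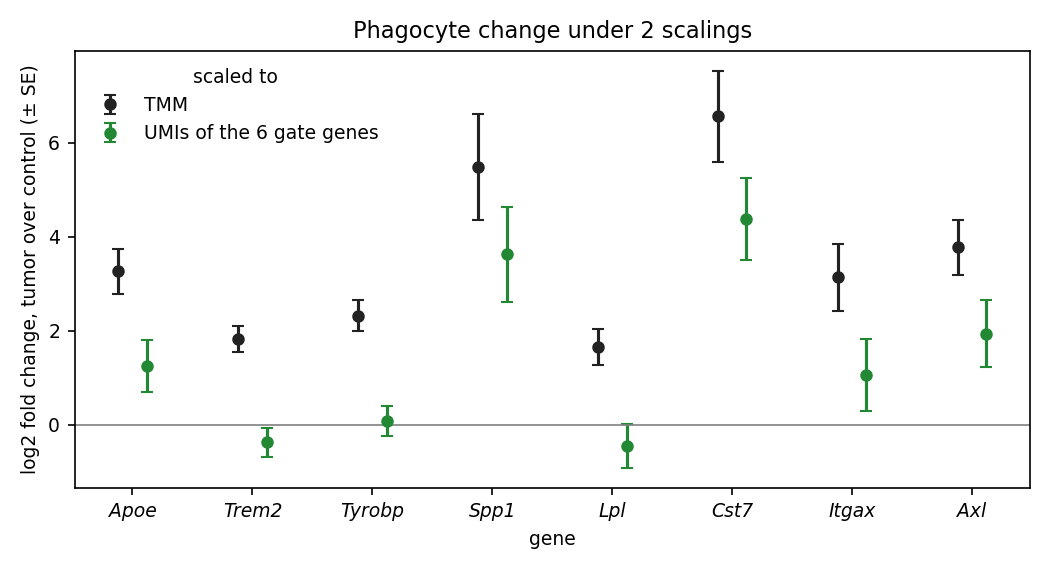
Fitted log2 fold change of tumor over control phagocytes with its SE for the 8 genes tested, after TMM scaling (black) and after scaling to the UMIs of the 6 gate genes (green). Cst7, Spp1 and Axl were called on both scales, and Trem2 and Lpl fell below 0 on the second without being called.

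Next came the question of which tumor cells held each gene. Within tumors, phagocytes contributed 94.1 to 98.1% of all kept Trem2 UMIs, 93.0 to 96.5% of Tyrobp, 83.2 to 100% of Itgax, 67.9 to 97.8% of Cst7 and 68.8 to 86.2% of Lpl. They contributed less of the others, at 24.97 to 69.8% of Apoe, 20.7 to 66.2% of Spp1, 13.8 to 31.5% of Axl and 4.94 to 23.9% of Gpnmb. For reading these shares, phagocytes of tumors 1 to 5 held 948916, 4990999, 2571143, 10060000 and 2380571 UMIs of all genes. All kept barcodes of the same tumors held 5900868, 16853231, 6857396, 37615459 and 16083271 UMIs. Phagocyte barcodes that also passed the astrocyte gate (12.9 to 40.9% per tumor) stayed among the phagocytes. A pair of tumor classes outside the phagocyte gate were used as comparators. The first were barcodes passing the astrocyte gate alone (323, 209, 254, 750 and 589 barcodes). Of these 5.57, 39.7, 9.06, 79.1 and 29.5% also held a UMI of the fusion allele, so the class may hold tumor cells as well as astrocytes. The second were barcodes with a UMI of the fusion, luciferase or internal ribosome entry sequences of the allele (74, 811, 86, 2951 and 1126 barcodes), and the 2 classes share barcodes. A single UMI was enough, and the part of free RNA in it was not tested. In control 3, of a genotype without the allele, 6 barcodes outside the phagocyte gate held such a UMI, and in controls 1 and 2 none did.

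Apoe was as high in the astrocyte gate as in phagocytes. It measured 18275, 12966, 17016, 22191 and 13796 CPM in the astrocyte gate of tumors 1 to 5 and 7283, 6721, 5417, 13531 and 5618 CPM in fusion-allele barcodes. Phagocytes exceeded the astrocyte gate in tumors 2 and 4 only. The fitted difference was 0.15 ± 0.34 from the astrocyte gate (edgeR, adjusted p = 0.784) and 1.41 ± 0.24 from fusion-allele barcodes (adjusted p = 0.00428).

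Gpnmb was lower in phagocytes than in the astrocyte gate in every tumor. It measured 46.8, 91.9, 102, 174.5 and 4.18 CPM in the astrocyte gate and 6.88, 60.4, 58.9, 99.9 and 1.53 CPM in fusion-allele barcodes. The difference was -1.68 ± 0.34 on the log2 scale against the astrocyte gate (edgeR, adjusted p = 0.00707) and -0.61 ± 0.31 against fusion-allele barcodes (adjusted p = 0.173). Tumor 5 was low in every class.

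Axl and Spp1 were not called between phagocytes and either class. Axl measured 72.2, 165, 129, 237 and 95.2 CPM in the astrocyte gate and 89.4, 157, 93.0, 202 and 87.0 CPM in fusion-allele barcodes, and phagocytes differed by -0.53 ± 0.21 and -0.31 ± 0.19 (edgeR, adjusted p = 0.0924 and 0.252). Spp1 measured 64.2, 3971, 169, 2513 and 77.5 CPM in the astrocyte gate and 10.3, 2882, 429, 1794 and 55.2 CPM in fusion-allele barcodes. Tumors 2 and 4 were thus high in Spp1 in all 3 classes, tumor 5 only in its phagocytes (536 CPM), and the fitted differences were 0.16 ± 0.51 and 0.51 ± 0.74 (edgeR, adjusted p = 0.848 and 0.658). In tumor 2 Spp1 also reached 1797 CPM in neuron-gate barcodes and 1031 CPM in low-UMI barcodes. There 44.4% of thinned phagocytes and 44.8% of thinned neuron-gate barcodes held an Spp1 UMI, so in that tumor phagocytes did not exceed the neuron-gate background by this share. In tumor 5 the shares were 13.5 and 2.85%, and in tumor 4 48.4 and 10.0%, the latter of 20 barcodes.

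The other 5 genes set phagocytes far above both classes. Against the astrocyte gate the log2 differences were 6.40 ± 0.35 for Trem2, 6.19 ± 0.30 for Tyrobp, 6.00 ± 0.23 for Cst7, 6.88 ± 0.53 for Itgax and 4.55 ± 0.37 for Lpl, with adjusted p-values of edgeR from 2.66e-06 to 3.79e-05. Against fusion-allele barcodes they were 6.90, 6.90, 6.39, 6.14 and 3.65. Without tumor 4 the difference from fusion-allele barcodes rose to 7.34 for Cst7 and 8.96 for Itgax, and without tumor 5 that of Itgax was 5.43. Against the astrocyte gate Cst7, Itgax and Lpl passed the filter through phagocytes alone (16, 1 and 24 UMIs in that gate over all 5 tumors), as did Cst7 and Itgax against fusion-allele barcodes, so that a call lower was not open to them. With counts this small the fitted size for Itgax depends on edgeR's prior count. Over the 5 tumors phagocytes held 268 Itgax UMIs, the astrocyte gate 1 and fusion-allele barcodes 8, all 8 in tumor 4. The pooled ratio of its CPM was 120 over the astrocyte gate (exact 95% interval 21.4 to 4763, counting error only) and 56.3 over fusion-allele barcodes (28.2 to 132). With Gpnmb lower, 6 of 9 members were called against the astrocyte gate, or 3 of 6 without Cst7, Itgax and Lpl, where 15% of all genes were called higher and 15.3% lower (30.3% in all). Against fusion-allele barcodes 6 of 9 were called, all higher, or 4 of 7 without Cst7 and Itgax, where 14.8% of all genes were called higher and 9.61% lower (24.4% in all). Trem2 in the astrocyte gate stood at 6.69 to 16.4 CPM, below its level in low-UMI barcodes of the same tumors (42.2 to 244 CPM).

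**Figure D3:**
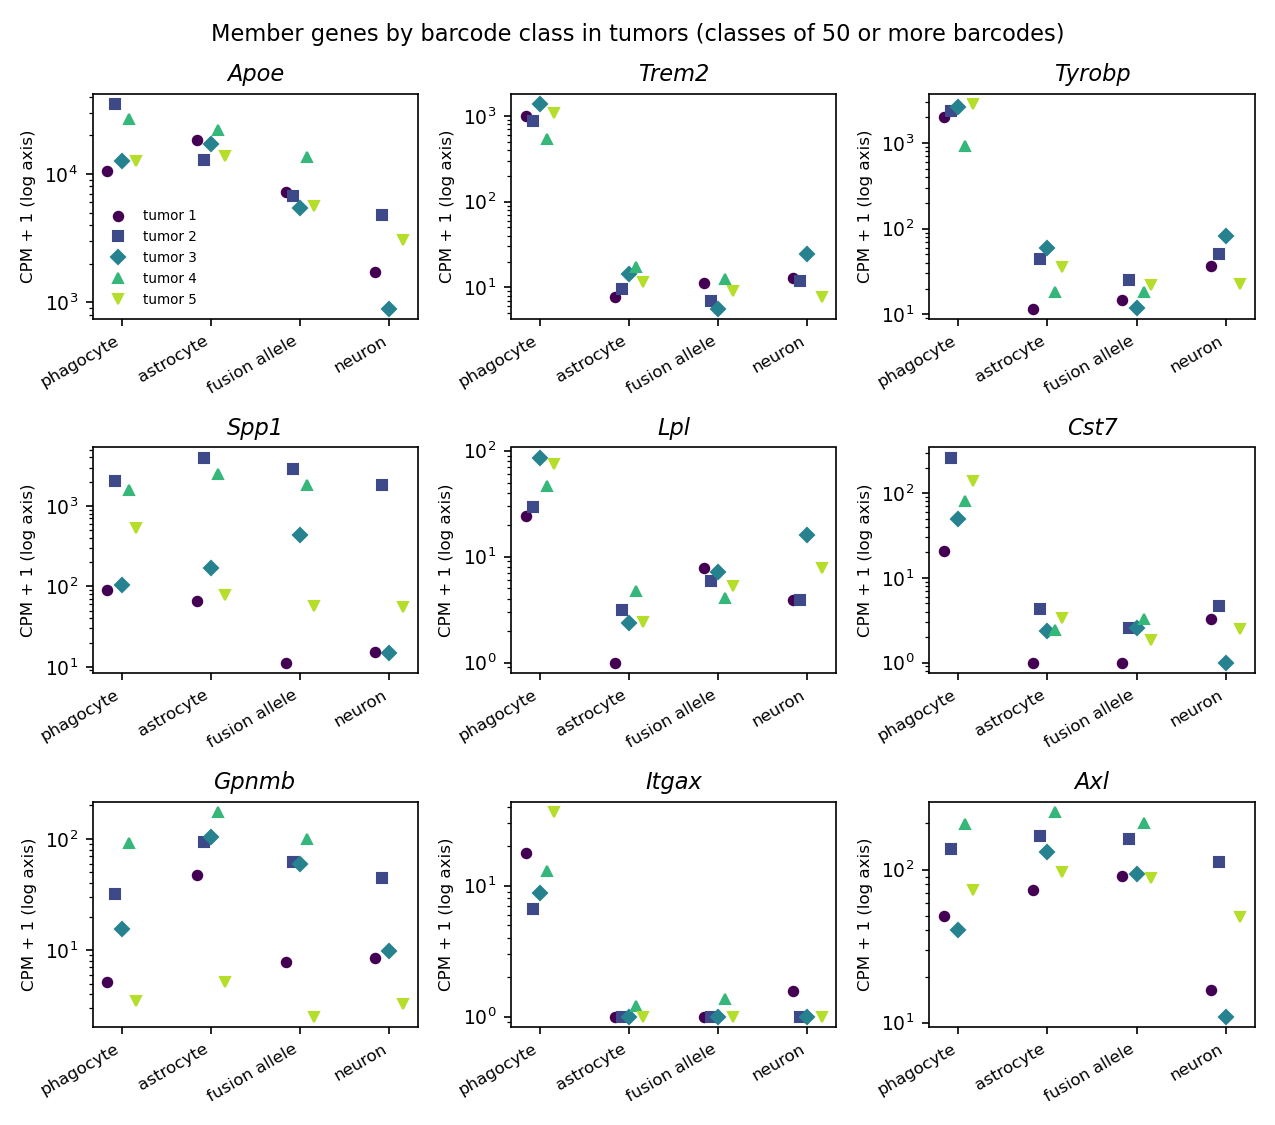
Level of each gene in 4 barcode classes of the tumors, in CPM + 1 on log axes that differ between panels, with 1 point per tumor for classes of 50 or more barcodes. Trem2, Tyrobp, Cst7, Itgax and Lpl stand out in phagocytes, while Apoe, Spp1, Gpnmb and Axl are on average about as high or higher in the astrocyte gate. Tumors 2 and 4 are high in Spp1 throughout, and tumor 5 only in its phagocytes.

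**Figure D4:**
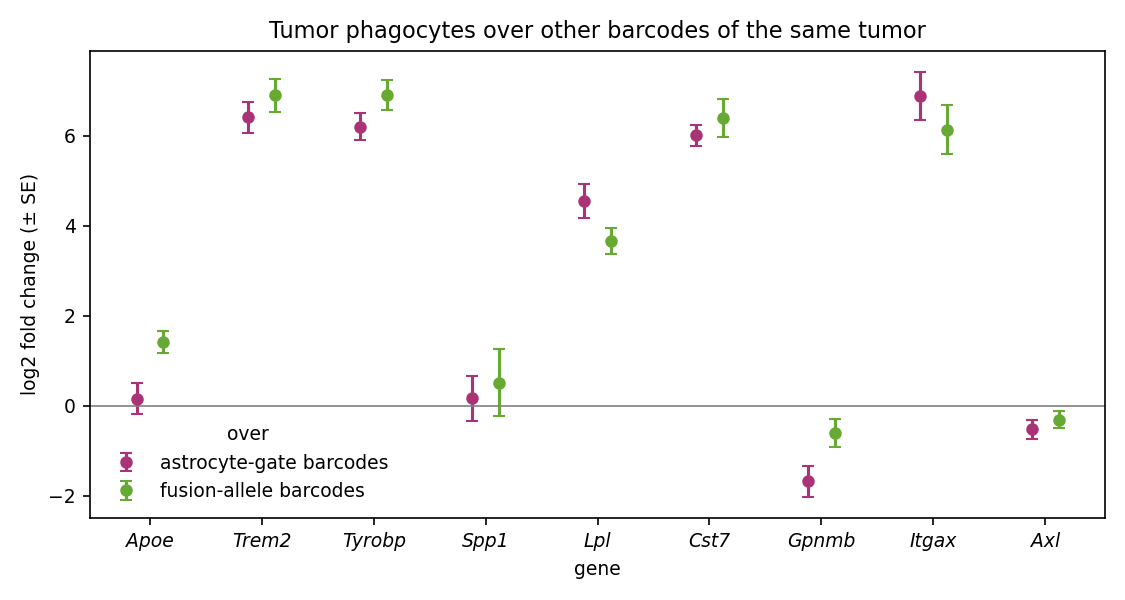
Fitted log2 fold change of tumor phagocytes over astrocyte-gate barcodes (purple) and fusion-allele barcodes (green) of the same tumors, with SE, for 5 tumors. The 9 genes fall into 5 with differences of 3.65 or more and 4 between -1.68 and 1.41.

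Over all 9 mice, phagocytes were set against the remaining barcodes of the same mouse, which are mostly neuron-gate barcodes in controls. Of the 7 members tested, 5 were called higher, where 16.5% of all genes were higher, 24.2% lower and 40.7% either, and none was called lower. These were Trem2 (5.94 ± 0.36), Tyrobp (5.32 ± 0.39), Lpl (2.46 ± 0.51, adjusted p = 0.00245), Apoe (1.10 ± 0.23, adjusted p = 0.00274) and Axl (0.43 ± 0.15, adjusted p = 0.0349), all by edgeR. Axl lost this call in 14 of 21 alternatives. Spp1 (0.41, adjusted p = 0.389) and Gpnmb (-0.45, adjusted p = 0.125) were not called, and Cst7 and Itgax did not pass the filter.

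The members also differed between tumor and control outside the phagocytes. Axl measured 3.49 to 4.89 CPM in the other barcodes of controls and 39.0, 125, 62.5, 193 and 78.5 CPM in those of tumors, a difference of 4.87 ± 0.59 on the log2 scale (edgeR, adjusted p = 0.000322). Apoe (1570.3 to 1985 against 4807 to 13269.5 CPM) was higher by 2.33 ± 0.46, Spp1 by 5.61 ± 1.42, Gpnmb by 5.66 ± 1.07 and Cst7 by 2.83 ± 0.39, with adjusted p-values of 0.00247, 0.00787, 0.00195 and 0.000490. Lpl was lower by this test (-1.46 ± 0.32, adjusted p = 0.00405), at 12.2 to 13.9 CPM in controls and 2.02, 3.96, 8.17, 3.16 and 3.50 CPM in tumors. Trem2 and Tyrobp were not called (0.28 and 0.54, adjusted p = 0.302 and 0.169). The low-UMI barcodes of the tumors were about as high as these barcodes in Apoe (mean 7469 against 7351 CPM), Axl (104 against 99.5 CPM) and Gpnmb (45.3 against 41.2 CPM), higher in Cst7 (20.8 against 2.07 CPM) and lower in Spp1 (397 against 901 CPM), and the part of free RNA in these differences was not tested. In sum 5 of 8 members were called higher and 1 lower, where 31.1 and 28% of all genes were (59.1% in all). Cst7, with 23 UMIs in the other barcodes of all controls, passed the filter on low counts through the tumors alone, and of the other 7 members 4 were called higher. These barcodes differ in makeup as well, since 2521 to 4836 per control and 20 to 871 per tumor passed the neuron gate alone, and in a sum over cells a change of makeup and a change per cell cannot be told apart.

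A test of the difference itself asked whether tumor phagocytes differed from control phagocytes by more than the other barcodes did. Of the 9 members, 5 were called, all in the direction of a larger difference in phagocytes, where 3.84% of all genes were called in that direction and 0.854% in the other (4.7% in all). Cst7, Gpnmb and Itgax passed the filter on low counts through tumor sums, with 7, 2 and 10 UMIs in all control phagocytes. The call of Cst7 therefore adds nothing to the count, which leaves Lpl, Tyrobp, Trem2 and Apoe. Lpl had the smallest p, at a difference of 3.38 ± 0.28 (edgeR, adjusted p = 4.86e-05), since it was higher in tumor phagocytes and lower in the other tumor barcodes. Tyrobp (2.08 ± 0.31, adjusted p = 0.00319) and Trem2 (1.82 ± 0.33, adjusted p = 0.00997) followed. Cst7 (3.99 ± 1.01, adjusted p = 0.0406) and Apoe (1.19 ± 0.31, adjusted p = 0.0463) lay close to the threshold, and each lost its call in 8 of 20 alternatives, among them leaving out any 1 of the 4 control mice, which left 3 of 9 members called. Axl had the opposite sign (-0.85 ± 0.26, adjusted p = 0.0825) and was called in 9 of 20 alternatives, and Spp1, Gpnmb and Itgax were not called (0.82, 0.93 and 1.44). Gpnmb and Itgax had few UMIs in control phagocytes, and single mice moved them. Gpnmb ranged from 0.086 without control 2 to 5.66 without control 3, and Itgax from 0.32 without tumor 5 to 3.17 without tumor 4. Over all deposited barcodes Gpnmb was called with the opposite sign (-0.91, adjusted p = 0.0278) and Itgax was called (2.00, adjusted p = 0.0373), both by edgeR. The neuronal genes were lower in tumors in both arms (median -2.77 in phagocytes and -1.91 in the other barcodes), and in this test of the difference none of 12 was called higher and 1 lower (median -0.23, where that of all genes was 0.09). Genes of phagocytes in general moved as well. Of the homeostatic microglia genes 4 of 10 were called in the direction of a larger difference in phagocytes and 1 in the other (median 0.96), and of the macrophage and monocyte genes 2 of 11 and none (median 1.55). A direction toward phagocytes in this test was thus not particular to the members. The 6 gate genes also differed, at 4740 to 7512 CPM in control phagocytes and 9778 to 26829 CPM in tumor phagocytes. Scaled to them, Lpl, Tyrobp, Trem2 and Apoe were not called between tumor and control phagocytes. The part of that difference in this test was not tested.

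The tumor phagocytes were then divided by microglial transcripts. Those without a UMI in any of the 10 homeostatic microglia genes (24, 71, 30, 200 and 48 barcodes) were set against those with 2 or more of these genes (274, 681, 377, 739 and 371 barcodes). Without them Trem2 differed by -4.37 ± 0.32 on the log2 scale, Lpl by -4.37 ± 0.46, Cst7 by -4.75 ± 0.37, Tyrobp by -3.33 ± 0.30 and Apoe by -1.92 ± 0.27, with adjusted p-values of edgeR from 6.26e-09 to 2.28e-05. Spp1 (-1.16, adjusted p = 0.102), Axl (-0.57, adjusted p = 0.110) and Gpnmb (0.10, adjusted p = 0.901) were not called. Thus 5 of 8 members were lower, where 13.5% of all genes were lower, 8.53% higher and 22% either. Cst7 and Lpl had 15 and 8 UMIs in all in the class without microglial transcripts and owe their place in the test to the other class, and of the other 6 members 3 were lower. Other phagocyte genes were lower as well. These were 10 of 10 genes of TREM2-TYROBP signalling (median -3.30), 16 of 16 lysosomal genes (-3.02) and 11 of 16 other disease-associated genes (-1.38), with none higher. Of the macrophage and monocyte genes 3 of 7 were lower and 1 higher. A lower level was thus not particular to the members. The barcodes without microglial transcripts were shallower in every tumor (median 1712.5 to 6192 UMIs against 2493 to 6737), and 11 of 11 neuronal genes tested were higher in them. Per mouse, Cst7 stood at 23.2, 337, 56.5, 139 and 180.5 CPM with microglial transcripts and at 0, 15.3, 10.3, 6.71 and 0 CPM without.

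Within tumor phagocytes Apoe was highest in barcodes with macrophage transcripts. Barcodes with 2 or more genes of a macrophage and monocyte list, among them Ms4a7 and Mrc1 (20, 249, 49, 162 and 8 barcodes), held 51111, 75283, 43146, 79295 and 43142 CPM of Apoe. Barcodes with 2 or more microglial and no macrophage genes (235, 323, 269, 473 and 351) held 5001, 12968, 6113, 21668 and 14205 CPM. The first were higher in 5 of 5 tumors, by 3.04- to 10.2-fold. Cst7 went the other way in 4 of 5 tumors, with 24.1, 151, 40.2, 87.4 and 0 CPM in the macrophage class and 12.9, 463, 49.3, 145 and 185 CPM in the microglial class. Spp1 took no common direction, at 699, 2034, 274, 1322 and 185 CPM against 9.68, 1628, 76.3, 1697 and 722 CPM. Axl and Tyrobp were higher with macrophage transcripts in 4 of 5 tumors, Lpl in 3, Trem2 in 2, and Itgax and Gpnmb, like Cst7, in 1. The macrophage class of tumors 1 and 5 held no UMI of Itgax or Gpnmb. These divisions are given without a test, and the class of tumor 5 rests on 8 barcodes. A macrophage UMI is more likely in deep barcodes, and the macrophage class had the larger median UMI count in 4 of 5 tumors (3806.5, 5990, 8230 and 4510 UMIs against 2360, 4042, 2839 and 4346 in tumors 1, 2, 3 and 5).

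**Figure D5:**
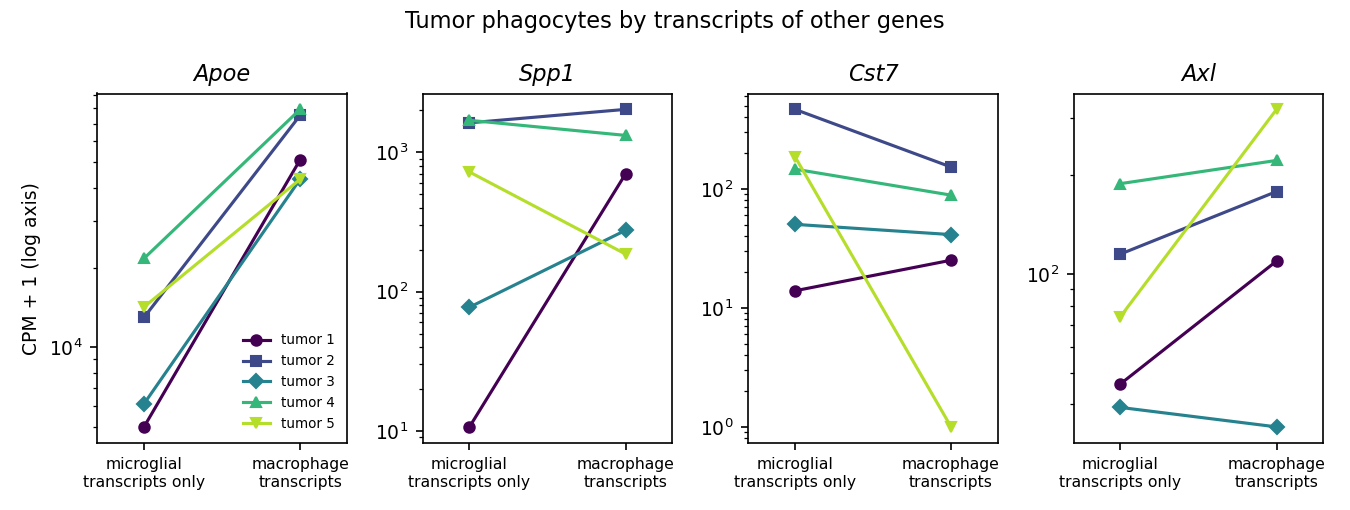
Level of Apoe, Spp1, Cst7 and Axl in tumor phagocytes with microglial transcripts only and with macrophage transcripts, in CPM + 1 on log axes, with 1 line per tumor. Apoe is higher with macrophage transcripts in 5 of 5 tumors and Cst7 lower in 4 of 5.

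Among tumor phagocytes with 2 or more microglial genes, those that held a Cst7 UMI (11, 288, 56, 249 and 117 barcodes) were compared with those that held none (263, 393, 321, 490 and 254 barcodes). Itgax was higher in the Cst7 class in 5 of 5 tumors, by 3.27- to 5.94-fold, and Lpl by 2.00- to 9.07-fold. Trem2 (1.49 to 4.07), Tyrobp (1.50 to 4.36) and Apoe (1.14 to 3.05) were higher in 5 of 5 tumors as well. Lpl measured 162, 54.0, 164, 181 and 165.5 CPM with a Cst7 UMI and 17.9, 21.0, 82.0, 32.0 and 53.8 CPM without. Axl was higher in 5 of 5 by at most 1.95-fold, Spp1 in 3 of 5 and Gpnmb in 2 of 5. A Cst7 UMI is more likely in deep barcodes, and the Cst7 class had the larger median UMI count in 4 of 5 tumors (3597 to 7873 UMIs against 2427 to 6957), so these ratios are a description.

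Other genes of the same pathways were counted in tumor against control phagocytes by edgeR at an adjusted p of 0.05, where 25.6% of all 12218 genes were higher and 23.7% lower, and their median was 0.09. Of the TREM2-TYROBP signalling list 7 of 11 genes were higher and none lower (median 1.44), led by Hcst (DAP10, a sister adaptor of TYROBP, 2.91), Ptpn6 (a phosphatase, 1.47) and Card9 (1.56). Of the phagocytosis receptors and their ligands 4 of 12 were higher (median 0.99), with Lrp1 (1.14) and the scavenger receptors Stab1 (1.98) and Msr1 (3.09) in front. Of the lipoprotein and cholesterol export genes 7 of 11 were higher (median 1.06), with Npc2 (lysosomal cholesterol transfer, 2.24) and the apolipoproteins Apoc1 (4.45) and Apoc2 (4.95), whose genes lie beside Apoe. Of the fatty acid and lipid droplet genes 4 of 9 were higher and 3 lower (median 0.27). Plin2, the coat protein of lipid droplets, was higher by 3.73 and Cpt1a by 1.77, and Fabp3 was lower (-2.52).

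The counts that follow stand beside the same 25.6% of all genes higher and 23.7% lower. Of the lysosomal list 15 of 16 genes were higher (median 2.13), with Ctsh (2.42), Ctsz (2.72) and Cd63 (2.51) in front. Of the other disease-associated microglia genes 14 of 16 were higher (median 2.07), led by Ftl1 (3.11), Cd9 (2.24) and Cd52 (3.50). The integrin partners of osteopontin had 6 of 10 higher (median 1.06), among them its receptor Cd44 (2.57), Itgb5 (1.47) and Itgb1 (1.21). The MiT/TFE factors had 1 of 3 higher (Tfeb, 1.40, median 0.34). Of the homeostatic microglia genes 2 of 10 were higher, Sparc (1.26) and Olfml3 (1.29), and none lower (median 0.08). Of the macrophage and monocyte genes 3 of 9 were higher (median 1.72), namely Ms4a7 (3.57), Pf4 (2.19) and Cbr2 (2.44). Of the neuronal genes 11 of 12 were lower (median -2.77), with Camk2a (-2.32), Meg3 (-3.30) and Stmn2 (-2.92) in front.

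These directions depend on the scale. Relative to the gate genes, where 77.9% of all genes were called lower and their median was -1.98, all 10 homeostatic microglia genes were called lower (median -2.24), and their summed level was 713, 617, 665 and 672 UMIs per 1000 gate-gene UMIs in controls and 218, 114, 261, 120.3 and 197 in tumors. On this scale 5 of the 16 other disease-associated genes stayed higher (Cd52, Lyz2, Cd83, Capg and Ftl1, from 0.94 to 1.67, a list in which 4 were lower), and so did Ch25h (4.16), Apoc2 (2.74) and Apoc1 (2.53) of the lipoprotein list, with 6 of its genes lower, and Plin2 (1.61) of the lipid droplet list, with 6 lower. None of the lysosomal genes was then higher and 4 of 16 were lower (median -0.13). None was higher and 6 of 11, 8 of 12, 7 of 10, 2 of 3, 1 of 9 and 12 of 12 were lower in the signalling, phagocytosis, integrin, MiT/TFE, macrophage and neuronal lists. The summed macrophage list overlapped between groups per 1000 gate-gene UMIs, at 17.3, 25.5, 35.4 and 7.57 in controls and 18.6, 26.3, 21.6, 16.4 and 2.38 in tumors.

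Across the 33 sums of a mouse and a cell class with at least 50 barcodes, the genes with the most similar pattern differed by member. They were ranked by Pearson's r of log2(CPM + 10) over 7767 genes, as a description, since sums share mice and libraries. For Trem2 they were 3 gate genes, C1qc (r = 0.993), C1qa (0.992) and Ctss (0.990). The gate genes themselves chose the phagocyte barcodes, so any gene held mainly by phagocytes follows them by construction. For Apoe they were Cpq (0.883), Cd63 (0.870) and Sdc4 (0.848), for Gpnmb Lcat (0.930), Aspg (0.891) and Cald1 (0.873), and for Spp1 Gm17455 (0.937), S1pr3 (0.925) and Col23a1 (0.925). No gate gene stood among the 3 nearest of Apoe, Gpnmb or Spp1.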

How the data were processed

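Libraries of 9 mice were analysed, 1 per mouse, grouped by the genotype in the sample records. The authors aligned reads to mm10 with Cell Ranger (version 7 in the submitters' processing notes, 6.1.2 in the matrix headers), and deposited raw UMI counts, which are whole numbers for each gene in each barcode and were not normalized. In control replicate 4 the feature and barcode lists are shorter than the matrix (80865 names for 80887 columns), so barcodes were used by column and its fusion-allele class was not formed. Pairs of the other 8 libraries shared 1 to 10 kept barcodes.

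The 10000 barcodes with most UMIs were considered, those with 200 to 6000 genes were kept, the component of higher mitochondrial share of a 2-component Gaussian mixture was removed (scikit-learn 1.9.0), and doublets were removed by Scrublet score (Scanpy 1.11.5) at 0.8% per 1000 barcodes. Gates needed 3 of 6 genes. Counts were summed per mouse and class of at least 50 barcodes (20 for the division by microglial transcripts) and compared by edgeR 4.0.16 (quasi-likelihood test, TMM scaling, genes with few counts filtered out), and p-values were adjusted by Benjamini-Hochberg over all genes tested, with a threshold of 0.05. The alternative of phagocytes passing no other gate was fitted without this minimum, on 28, 2, 8 and 4 control barcodes. Mouse was a block where both sums came from the same mice. P-values measure the spread between mice. A chi-square test of their counts separated all pairs of mice of the same group. The test was tried on simulated counts. The alternatives were limma voom, DESeq2, scaling to library size, no low-count filter, each mouse left out, the replicate number as a block, stricter or exclusive gates, no mitochondrial or doublet filter, at least 500 genes, all deposited barcodes and subtraction of free RNA.

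The 10 members and the gene lists were chosen with earlier results of these data known. All members are named, and of each other list the counts and up to 3 called genes with the smallest p in tumor against control phagocytes, beside those called higher on the gate-gene scale, which were named after their values were seen. The gate-gene scaling, the comparisons of other barcodes by condition and of tumor phagocytes with astrocyte-gate or fusion-allele barcodes, and the divisions by macrophage transcripts and Cst7 were also chosen after seeing the data. Promoters and coordinates came from RefSeq tables of GRCm38.p6, the build that mm10 names.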

Additional observations from a re-analysis of the deposited data

Results flagged for a closer look

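Single mice that stood far from the rest of their group were sought with Dixon's test, which flags about 1 in 20 groups by chance. In control phagocytes these were Apoe in control 3 (3595 CPM), Cst7 in control 1 (0 CPM) and Gpnmb in control 3 (1.76 CPM, or 0.358 per 1000 gate-gene UMIs), where the other controls had no Gpnmb UMI. Tumor 4 stood apart in Axl (20.1 per 1000 gate-gene UMIs) and Gpnmb (9.24 per 1000 gate-gene UMIs) of its phagocytes, in Apoe of its other barcodes (13269.5 CPM) and in Itgax of its astrocyte gate (0.207 CPM, where the other tumors had none). Tumor 3 stood apart in Tyrobp of its other barcodes (78.9 CPM). Those of Cst7 and Gpnmb in controls and of Itgax rest on 0 to 3 UMIs per mouse, the Itgax value on 1 UMI, so Dixon's ratio says little there.

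The difference between tumor and control was larger in phagocytes than in the other barcodes, by a test of the difference itself, for Lpl (3.38 on the log2 scale), Cst7 (3.99), Tyrobp (2.08), Trem2 (1.82) and Apoe (1.19). In this test 12 neuronal genes had a median of -0.23, with 1 called lower. In that direction toward phagocytes 3.84% of all genes were called. So were 4 of 10 homeostatic microglia genes (median 0.96), with 1 called in the other direction. Cst7 passed the filter on low counts through tumor sums, and Cst7 and Apoe lost their calls when any 1 control was left out. The gate genes stood at 4740 to 7512 CPM in control and 9778 to 26829 CPM in tumor phagocytes. Scaled to them, Lpl, Tyrobp, Trem2 and Apoe were not called between tumor and control phagocytes, and the part of this in the test was not tested.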

How the results depend on the processing

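The number of members called in tumor against control phagocytes was 8 of 8, of which Cst7 and Itgax passed the filter on low counts through the tumors alone. It was 6 of 8 in limma voom, where Cst7 and Itgax (adjusted p = 0.0580 and 0.0884) were not called. It was 5 of 7 in phagocytes passing no other gate, with Cst7 among those called, and 3 of 8 after scaling to gate genes, where Trem2 (-0.38) and Lpl (-0.46) turned. With 1 mouse left out it was 7 to 9, where 2425 to 3277 of 11564 to 13028 genes were called higher and 2400 to 3002 lower. The 9 include Gpnmb, with 2 UMIs in all control phagocytes, beside Cst7 and Itgax. Calls of these genes add nothing to the count. The number in the test of the difference between phagocytes and other barcodes was 5 of 9, with Cst7 passing the filter through tumor sums. It ranged from 3 to 6 with 1 mouse left out. Without tumor 1 or tumor 4 it was 6, with 5 in the main direction and 1 in the other. All genes moved too, with 617 of 16050 called higher and 137 lower in the main fit. These were 581 and 2055 of 15759 without tumor 4, 147 and 478 of 15760 without tumor 2, and 175 and 21 of 16295 without control 4. In tumor phagocytes without microglial transcripts the number of members called was 5 of 8, all lower, and 8 of 9 without the mitochondrial filter, of which 7 were lower and Gpnmb higher (0.59, adjusted p = 0.0376), where 34% of all genes were called against 22% with the filter. With 1 mouse left out, 4 to 6 were called against other cells of the same mouse, 5 to 6 without microglial transcripts, 6 in the other barcodes by condition, 5 to 6 against the astrocyte gate and 6 against fusion-allele barcodes. In those fits 2027 to 2417 of 14069 to 15092 genes were called higher and 2926 to 3396 lower against other cells. By microglial transcripts they were 374 to 851 and 984 to 1213 of 7683 to 10869. In the other barcodes they were 4432 to 5779 and 3774 to 5772 of 16878 to 17482. Against the astrocyte gate they were 1291 to 1888 and 913 to 1836 of 11232 to 12068. Against fusion-allele barcodes they were 1163 to 2118 and 52 to 1775 of 12188 to 13528. Called with the opposite sign was Gpnmb over all deposited barcodes in the test of the difference (-0.91, adjusted p = 0.0278). The uncalled values that turned were Spp1 without tumor 5 (-0.079 in the test of the difference, -0.37 against the astrocyte gate, -0.17 against fusion-allele barcodes, with ranges up to 1.09, 0.50 and 1.12 as other mice were left out), Gpnmb (-0.60 without the mitochondrial filter in the test of the difference, and, in the division by microglial transcripts, -0.038 without the low-count filter and -0.049 to 0.20 with 1 mouse left out, lowest without tumor 2) and Apoe against the astrocyte gate (-0.15 without tumor 2, to 0.41). The cause was not tested. Of the values of single members under alternatives, 994 kept their direction and side of the threshold, 37 lost a call, 26 gained one, 15 moved and 10 turned.

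Same-numbered control and tumor mice did not deviate together (correlations of 0.0330, -0.0969, -0.0746 and 0.0362), so the numbers do not pair mice. With the replicate number as a block over replicates 1 to 4, 7 of 7 members tested were called in phagocytes, all higher, where 19.3% of all genes were. Cst7 was among them, with at most 3 UMIs per control, so its call adds nothing to the count. The astrocyte and endothelial gates could not be tested by condition, since controls had 22, 7, 5 and 1 astrocyte-gate and at most 1 endothelial-gate barcodes, and the division by microglial transcripts had too few barcodes for the gates that exclude other types or ask for 0.5% of UMIs. Low counts limit Cst7, Gpnmb and Itgax in controls, where 3 UMIs stand for 1.75 to 6.59 CPM. Interval and floor cover counting error only.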
